A study of Mus musculus with 13 samples.

Results

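The miR-17~92 cluster was followed through 13 arrays of normal mouse thymocytes and Notch1-driven T-cell acute lymphoblastic leukaemia (T-ALL). Its members were chosen by name as the main mature miRNAs of the 6 hairpins of the cluster: mmu-miR-17-5p, mmu-miR-18a-5p, mmu-miR-19a-3p, mmu-miR-20a-5p, mmu-miR-19b-3p and mmu-miR-92a-3p (written below without the mouse prefix), 6 of the 1122 mouse miRNAs on the array. The paralogous clusters miR-106b~miR-25 and miR-106a~miR-363 were left out of the members and are used only for comparison. Across the arrays the cluster was high in CD4- CD8- thymocytes and low in CD4+ CD8+ thymocytes, with miR-18a-5p differing most and miR-92a-3p least. The leukaemias lay mostly between these stages, apart from 1 early-stage leukaemia and the cell line, which lay lowest.

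All mice were C57BL/6. DN are CD4- CD8- thymocytes and DP are CD4+ CD8+ thymocytes, each sorted from thymus and measured on 3 arrays. The leukaemias are early-stage (ES) and late-stage (LS) T-ALL with 3 arrays each. They arose in bone marrow chimeras transformed with N1ICD, the intracellular domain of Notch1 that signals on its own, and were sorted from spleen as CD4+ CD8+ cells. M295 is a cultured T-ALL line of C57BL/6 origin, with 1 array. The labels name no transgene for the thymocytes, which came from another organ than the leukaemias, so any contrast of leukaemia with thymocytes is also one of spleen with thymus, and these cannot be told apart. The labels do not say whether the 3 arrays of a group came from separate mice, so p-values measure the spread between these arrays. In such bulk samples, fewer cells of a type and less RNA per cell cannot be told apart.

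The 6 miRNAs are cut from a common primary transcript of the host gene Mir17hg, which is known to be activated by Myc. MicroRNAs pair with messenger RNAs mainly through the seed, bases 2 to 8, and lower their output. The cluster is known as an oncogene in lymphoid tumours, with the pro-apoptotic Bim gene among its targets, and it is needed for normal lymphocyte development.

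The mature sequences are shown because they group the members by what they can target and show which copies an array probe may not tell apart. Sequences and positions are from RefSeq on GRCm38.p6, in which all 6 members were found by name. Each is written 5′ to 3′ with the seed in capitals, in the order of the hairpins on the chromosome.
miR-17-5p: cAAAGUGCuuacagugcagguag
miR-18a-5p: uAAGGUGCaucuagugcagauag
miR-19a-3p: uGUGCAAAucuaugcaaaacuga
miR-20a-5p: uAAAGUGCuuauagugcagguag
miR-19b-3p: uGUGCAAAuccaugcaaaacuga
miR-92a-3p: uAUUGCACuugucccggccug

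The 6 hairpins lie on the plus strand of chromosome 14, at chr14:115043671-115044506, within 836 bases. miR-17-5p and miR-20a-5p share the seed AAAGUGC and differ at positions C1U and C12U, counted from the 5′ end with the base of miR-17-5p given first. miR-18a-5p carries AAGGUGC. miR-19a-3p and miR-19b-3p share GUGCAAA and differ only by U11C, from miR-19a-3p to miR-19b-3p. miR-92a-3p carries AUUGCAC. The same mature miR-19b-3p and miR-92a-3p are also encoded by Mir19b-2 (chrX:52741991-52742013, minus strand) and Mir92-2 (chrX:52741854-52741874, minus strand) of the miR-106a~miR-363 cluster. Their signal on the array can therefore come from either locus.

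The sequences of 3 paralogs are shown for their closeness to the members.
miR-20b-5p: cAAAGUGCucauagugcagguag
miR-18b-5p: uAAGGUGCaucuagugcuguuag
miR-25-3p: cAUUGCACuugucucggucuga
Relative to miR-20a-5p, miR-20b-5p carries U1C and U10C, and relative to miR-18a-5p, miR-18b-5p carries A18U and A20U. Over the 21 bases compared, miR-25-3p differs from miR-92a-3p by U1C, C14U and C18U and has 1 base more. Cross-hybridization between such copies was not tested.

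Levels are given as the log2 of the background-subtracted intensity divided by the 75th percentile of the same array. That percentile was taken over the 108 mouse miRNAs above background on all 12 primary arrays, so that 0 marks this percentile and a difference of 1 is a factor of 2. All 78 member values (6 members on 13 arrays) were above background, from 33 to 40 kept spots of 2 probes each, with intensities of 74.81 to 8292 and no saturated spot. The number of mouse miRNAs above background ranged from 115 on ES 1, whose negative controls had a standard deviation of 18.7 against at most 7.11 elsewhere, to 257 on M295. No 2 arrays held identical values.

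The sort labels were set against known miRNAs. miR-181a-5p, which is abundant in DP thymocytes, was at 1.80 to 1.96 in DP and at -0.98 to -0.68 in DN. The haematopoietic miR-142-3p was at 2.12 to 3.18 on all 13 arrays. Of 13 markers of other cell types, 7 were above background on no array. ES 3 stood apart in the myeloid miR-223-3p, which was at 2.85 there and at most -4.89 on every other array. It was also the highest array for mature-lymphocyte miR-150-5p (-1.85) and haematopoietic miR-142-3p (3.18) and miR-142-5p (0.59). Erythroid miR-144-3p was above background on ES 3, at -4.59. On ES 3 miR-181a-5p was at 0.11, against -2.52 and -1.55 on ES 1 and ES 2. In LS miR-181a-5p ran from -0.99 to -0.01, close to ES 3 at its upper end, and it was at -2.57 in M295. Because ES 3 was also the lowest of the 12 primary arrays for all 6 members, each comparison of the members between groups is given with and without it. Its low values of these same members are part of why it was left out, so p-values without it depend on that choice and cannot be read at face value. The epithelial miR-200c-3p was above background on ES 2, ES 3, LS 2 and M295 (-6.25, -6.31, -6.49 and -5.87) and at the floor in all DN and DP arrays.

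miR-17-5p and miR-20a-5p, the pair with the seed AAAGUGC, are known to repress cell-cycle inhibitors. miR-17-5p was at -2.61, -2.32 and -2.41 in DN 1 to 3 and at -3.79, -3.62 and -3.65 in DP 1 to 3. In the leukaemias it was at -2.50, -2.89 and -4.85 in ES 1 to 3, at -3.38, -3.14 and -2.95 in LS 1 to 3, and at -4.02 in M295. The DN and DP arrays did not overlap, the LS arrays lay between them, and the ES arrays ran from the DN range to below the DP range. miR-20a-5p was at 1.93, 2.01 and 1.82 in DN and at 0.89, 0.91 and 0.73 in DP. It was at 1.52, 1.79 and -0.03 in ES, at 0.95, 1.03 and 1.46 in LS, and at 0.22 in M295. Here no leukaemia reached the DN range, and ES 3 and M295 alone lay below the DP range.

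miR-18a-5p, the sole member with the seed AAGGUGC, was at -0.66, -0.61 and -0.75 in DN and at -2.29, -2.29 and -2.52 in DP. It was at -0.98, -0.44 and -2.56 in ES, at -1.30, -1.57 and -0.97 in LS, and at -2.96 in M295. ES 2 lay above every DN array, while ES 3 and M295 lay below every DP array.

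The miR-19 pair is known as the part of the cluster that drives lymphomas in mice. miR-19a-3p was at 0.45, 0.59 and 0.41 in DN and at -0.67, -0.53 and -0.92 in DP, with 0.10, 0.32 and -1.13 in ES, -0.52, -0.30 and 0.08 in LS, and -1.45 in M295. miR-19b-3p was at 2.33, 2.43 and 2.27 in DN and at 1.45, 1.54 and 1.25 in DP, with 2.09, 2.27 and 0.62 in ES, 1.47, 1.68 and 2.06 in LS, and 0.67 in M295. Both had all 3 DN arrays above all 3 DP arrays and ES 1 and ES 2 closer to DN than to DP.

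miR-92a-3p, of the miR-25 seed family, had another order. It was at 1.70, 1.67 and 1.56 in DN and at 1.41, 1.36 and 1.29 in DP, a narrower gap. It was at 1.48, 1.49 and 0.12 in ES, at 0.96, 1.15 and 1.18 in LS, and at 0.47 in M295. All 3 LS arrays lay below all 3 DP arrays, which was so for no other member.

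**Figure D1:**
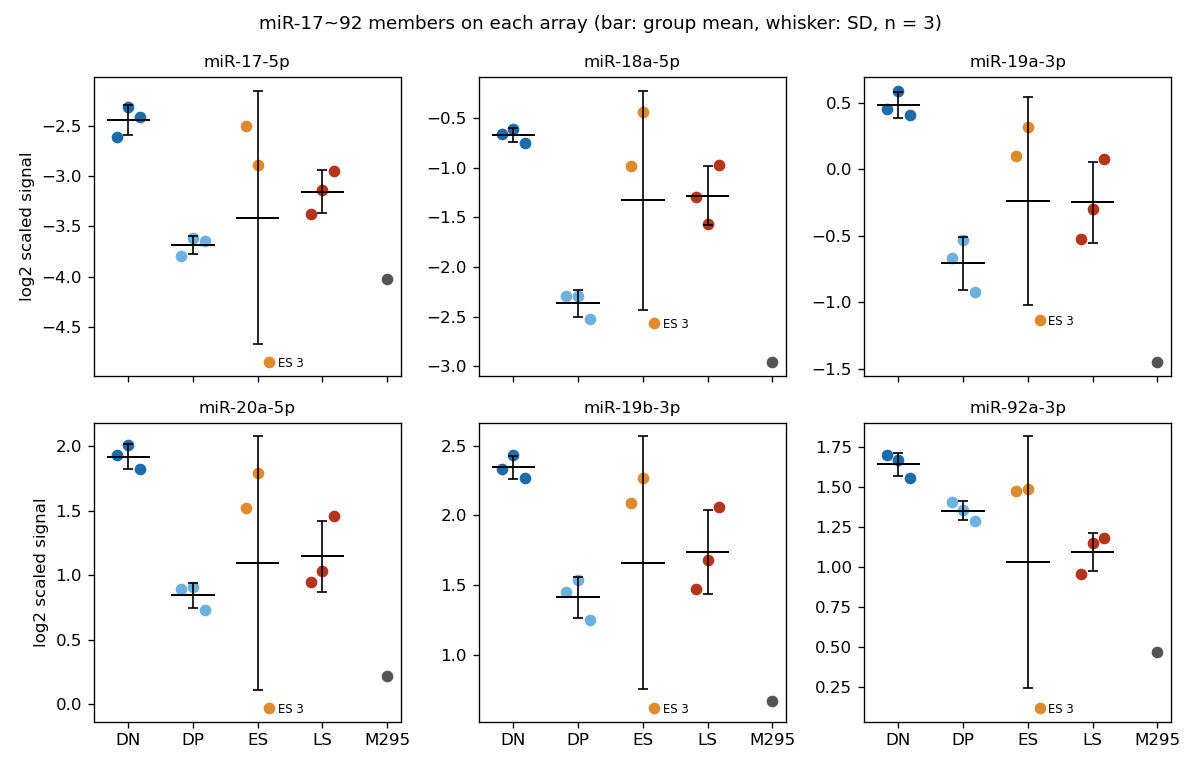
Log2 scaled signal of each of the 6 members (vertical axes, with their own range per panel) on every array of DN, DP, ES, LS and M295; bars are group means and whiskers standard deviations of 3 arrays. The DN mean is the highest in every panel, with DP below it, and ES 3 (labelled) is the lowest primary array in each, at -4.85 for miR-17-5p.

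The spread within a group was narrow except in ES. Over the 6 members the standard deviation was 0.07 to 0.14 in DN, 0.06 to 0.20 in DP and 0.12 to 0.30 in LS, against 0.78 to 1.26 in ES (n = 3 arrays each). The mean over the 6 members was 0.55 ± 0.07 in DN, -0.12 ± 0.23 in LS, -0.20 ± 0.96 in ES and -0.53 ± 0.10 in DP (SD, n = 3), and -1.18 in M295. The order DN, LS, ES, DP held for miR-17-5p, miR-18a-5p, miR-20a-5p and miR-19b-3p. LS and ES were level for miR-19a-3p, at -0.24 each, and miR-92a-3p ran DN, DP, LS, ES. LS and ES were neighbours that did not differ beyond their spread for any member, and ES and DP also overlapped for all 6.

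ES 3 lay apart from the other early-stage arrays. Against the mean of ES 1 and ES 2 it was 4.47-fold lower for miR-17-5p, 3.62-fold for miR-18a-5p, 3.21-fold for miR-20a-5p, 2.94-fold for miR-19b-3p, 2.57-fold for miR-92a-3p and 2.53-fold for miR-19a-3p. Among the 229 miRNAs tested, these were the 2nd, 5th, 6th, 7th, 9th and 11th lowest differences, and the median over all 229 was 0.52 on the log2 scale. ES 3 was the lowest primary array for 33 of the 229 (14.4%). It remained lowest for all 6 members under 7 other ways of computing the signal, the value table of the authors among them. With 1 array there is no test of this difference. The part in it of the myeloid signal on ES 3, and of its other high markers, was not tested.

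The comparison of DN with DP thymocytes asks how the cluster differs between these stages of normal T-cell development. All 6 members were higher in DN, and the arrays of the 2 groups did not overlap for any of them. Among all tested miRNAs 40.6% had DN above DP without overlap. In limma with Benjamini-Hochberg adjustment over 229 miRNAs, miR-18a-5p and miR-19a-3p were called higher (adjusted p under 0.05), 2 of 6 members, where 29.3% of all tested miRNAs were called and 10.5% were called higher. miR-18a-5p differed by 1.69 (SE 0.44, 95% interval 0.72 to 2.66), or 3.23-fold (adjusted p = 0.0146). miR-19a-3p differed by 1.19 (SE 0.34, 95% interval 0.43 to 1.94), or 2.28-fold (adjusted p = 0.0239).

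The other members missed the threshold. The log2 differences were 1.24 for miR-17-5p (adjusted p = 0.0838), 1.08 for miR-20a-5p (0.0659) and 0.93 for miR-19b-3p (0.0900). miR-92a-3p differed by 0.29, with a 95% interval of -0.42 to 1.00 (adjusted p = 0.531). At an unadjusted p under 0.05 there were 5 members, all but miR-92a-3p. The median difference of the 6 members was 1.14, and that of all 229 miRNAs was 0.15.

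These tests share 1 estimate of the spread with ES, and ES 3 widens it. Without ES 3 the DN and DP values are unaltered and 5 members were called higher, all but miR-92a-3p (adjusted p = 0.0681), where 44.1% of all miRNAs were called and 21% were called higher. Adjusted p then ran from 1.82e-04 for miR-18a-5p to 0.00167 for miR-19b-3p. With DN and DP fitted alone all 6 were called, against 71.6% of all miRNAs. Leaving out DP 3 ended the call of miR-18a-5p (adjusted p = 0.0590). miR-19a-3p lost its call without DP 3 (0.0887), without DP 1 (0.0613) and without DN 1, DN 2 or DN 3 (0.0566 to 0.0832). Within slide 1, with 1 array of each group, miR-18a-5p differed by 1.63, and within slide 2, with 2 of each, by 1.73 (limma, adjusted p = 0.155 and 0.0012). In slide 1 the spread comes from the ES and LS pairs alone. With quantile normalization or with no filter no member was called in DN against DP, and 1 was called with scaling over all mouse miRNAs or to the median, or in the value table of the authors. The direction was the same for all 6 members under every alternative tried.

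Markers of other cells moved with this comparison, in both directions. The mature-lymphocyte miR-150-5p was lower in DN, at -4.94 to -4.11, than in DP, at -2.58 to -2.37. It was not called (limma, adjusted p = 0.214). Erythroid, myeloid and endothelial markers were higher in DN. Erythroid miR-451 was at -0.06, -0.22 and -0.50 in DN and at -5.49, -5.72 and -6.45 in DP, and erythroid miR-144-3p was above background in all DN arrays but at the floor of -7.59 in all DP arrays. Both erythroid markers were called higher in DN. The summed linear level of both was 0.749 to 1.02 in DN and 0.0166 to 0.0274 in DP. The myeloid miR-223-3p was at -5.31 to -4.89 in DN and at -7.31 to -6.79 in DP, and the endothelial miR-126-3p, above background only in DN, was at -4.69 to -4.63 there. Stromal miR-143-3p and miR-145-5p, epithelial miR-205-5p and the muscle and brain markers were at the floor on all 13 arrays. The part of these cells in the difference of the cluster was not tested.

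**Figure D2:**
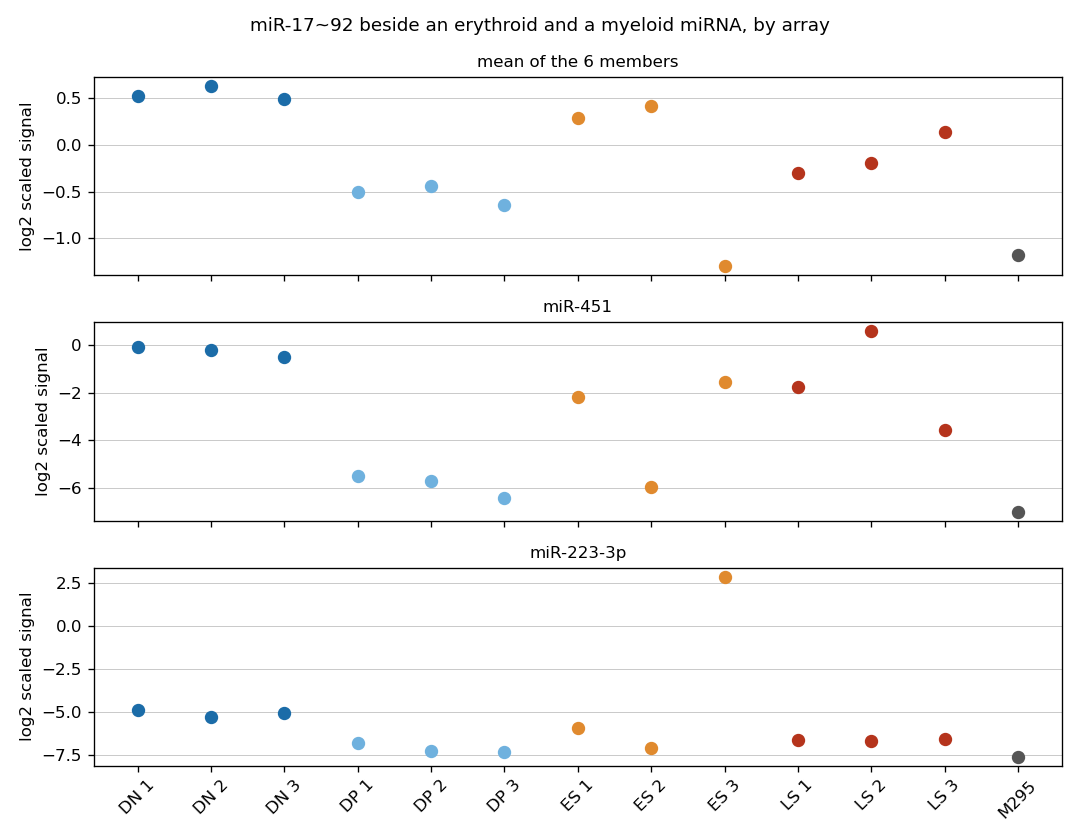
Mean log2 scaled signal of the 6 members (top), erythroid miR-451 (middle) and myeloid miR-223-3p (bottom) on each of the 13 arrays, coloured by group. DN arrays are high in the top and middle panels, and ES 3 combines the lowest cluster mean, -1.30, with the highest miR-223-3p, 2.85.

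ES and LS were each compared with DP, the normal thymocytes that share their CD4+ CD8+ surface. The DP-abundant miR-181a-5p was called lower in both, at -3.20 in ES and -2.52 in LS (limma, adjusted p = 0.000984 and 0.00314). With all arrays no member was called in ES, where 46.3% of all miRNAs were called. miR-18a-5p was 1.04 above DP (SE 0.44, 95% interval 0.07 to 2.01, adjusted p = 0.0753) and was the 1 member at an unadjusted p under 0.05. The remaining differences were 0.47 for miR-19a-3p, 0.27 for miR-17-5p, 0.25 for miR-20a-5p and -0.32 for miR-92a-3p, the last turning to 0.21 with all mouse miRNAs used for scaling. miR-19b-3p was at 0.25, which went to 0.00 when the cluster and its paralogs were left out of the scaling.

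Without ES 3 the picture of early-stage T-ALL against DP changed. Then 5 of the 6 members were called higher, against 52.4% of all miRNAs called and 20.5% called higher. miR-18a-5p was 3.15-fold higher (log2 1.66, SE 0.22, adjusted p = 0.000213) and miR-17-5p 1.99-fold (log2 0.99, SE 0.18, adjusted p = 0.0016). miR-19a-3p was 1.89-fold higher, miR-20a-5p 1.76-fold and miR-19b-3p 1.70-fold, with adjusted p of 0.00427, 0.00473 and 0.00821. miR-92a-3p differed by 0.13 (95% interval -0.16 to 0.43, adjusted p = 0.406). These values rest on 2 ES arrays, of which ES 1 had the noisiest background. ES 3, set against the 2 DP arrays of its own slide, went the other way for all 6 members, from -0.16 for miR-18a-5p to -1.22 for miR-17-5p. On the other slide, ES 1 and ES 2 against DP 1 gave 1.58 for miR-18a-5p and 1.10 for miR-17-5p, with no member called. With all arrays, erythroid miR-451, at -2.17, -5.98 and -1.53 in ES, was 2.66 above DP and was not called (adjusted p = 0.0852). Mature-lymphocyte miR-150-5p was at -1.78 against DP and was not called (limma, adjusted p = 0.229). The part of these markers in the cluster's values was not tested.

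In late-stage T-ALL against DP no member was called (58.5% of all miRNAs were called). The arrays did not overlap for 5 members. LS lay above DP for miR-17-5p, miR-18a-5p, miR-19a-3p and miR-20a-5p, as in 41.5% of all miRNAs, and below DP for miR-92a-3p, as in 36.7%. miR-18a-5p again differed most, by 1.08 (SE 0.44, 95% interval 0.11 to 2.06, adjusted p = 0.0536), and it was the 1 member at an unadjusted p under 0.05. It differed by 0.85 within slide 1 and by 1.44 within slide 2. miR-17-5p differed by 0.53, miR-19a-3p by 0.46, miR-19b-3p by 0.32 and miR-92a-3p by -0.26. miR-20a-5p was at 0.30, which turned to -0.02 with the cluster and its paralogs left out of the scaling. Without ES 3, 3 members were called higher (39.3% of all miRNAs called higher, 71.6% called in all): miR-18a-5p (adjusted p = 0.000851), miR-17-5p (0.0153) and miR-19a-3p (0.0425). With all arrays, erythroid miR-451, at -1.76, 0.58 and -3.56 in LS, was 4.31 above DP and was called. Mature-lymphocyte miR-150-5p was at -2.6 against DP, without overlap of the arrays, and was not called (limma, adjusted p = 0.077). The part of both in the cluster's values was not tested.

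Against DN, the less mature thymocytes, all 6 members lay lower in LS on every array, without overlap, as did 23.6% of all miRNAs. The differences were close to each other, from -0.55 for miR-92a-3p to -0.78 for miR-20a-5p. Within slide 1 they ran from -0.64 to -0.94, and within slide 2, on LS 3 alone, from -0.29 to -0.58. No member was called with all arrays (33.2% of all miRNAs were called; limma, adjusted p of 0.132 to 0.338), and none had an unadjusted p under 0.05. Without ES 3 all 6 were called lower, with adjusted p of 0.00351 to 0.0239, where 18.3% of all miRNAs were called lower and 51.1% were called in all. With DN and LS fitted alone all 6 were also called (44.5% of all miRNAs). Endothelial miR-126-3p was called lower in LS (-2.36, adjusted p = 0.00375). Myeloid miR-223-3p was at -1.53 in this comparison, with no overlap of the arrays, and was not called (adjusted p = 0.607). Erythroid miR-451 (-1.32) and miR-144-3p (-1.54) and mature-lymphocyte miR-150-5p (-0.48) were not called either. Their arrays overlapped, with miR-451 on LS 2, at 0.58, above every DN array. The part of these cells was not tested. The direction held for all 6 members under every alternative tried.

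Early-stage T-ALL was compared with DN in the same way. The 6 differences ran from -0.61 for miR-92a-3p to -0.97 for miR-17-5p, none was called (6.55% of all miRNAs were called) and none had an unadjusted p under 0.05. Without ES 3 they shrank to between -0.04 for miR-18a-5p (95% interval -0.52 to 0.45) and -0.27 for miR-19a-3p (-0.72 to 0.18) and miR-20a-5p (-0.68 to 0.14), again with none called (10% of all miRNAs). With all arrays, endothelial miR-126-3p was called lower in ES (-2.52, limma, adjusted p = 0.0132). Erythroid miR-451 (-2.97) and miR-144-3p (-1.94) lay lower in ES without overlap and were not called. Myeloid miR-223-3p (1.71) and miR-150-5p (0.33) were higher and not called. The part of these cells was not tested.

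**Figure D3:**
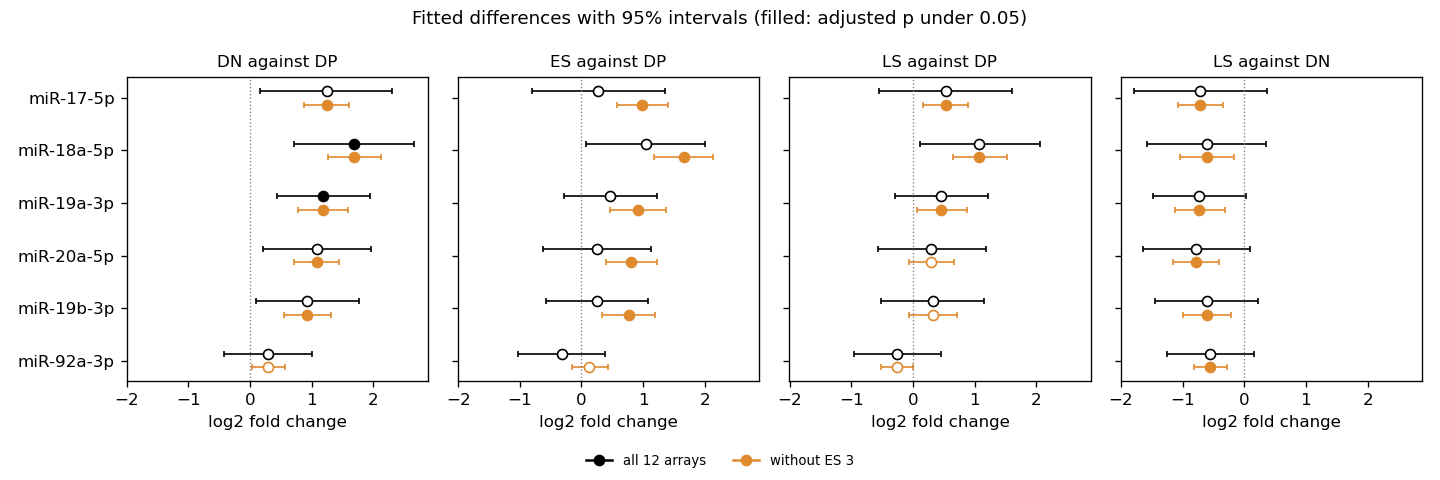
Log2 fold changes of the 6 members with 95% intervals in 4 comparisons, from all 12 primary arrays (black) and without ES 3 (orange); filled points have an adjusted p under 0.05. Intervals narrow without ES 3, the ES against DP values shift upward (miR-18a-5p from 1.04 to 1.66), and miR-92a-3p stays nearest to 0 in DN against DP.

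LS and ES were compared to ask whether the cluster differs between stages of the disease. No member was called (2.62% of all miRNAs were called), none had an unadjusted p under 0.05, and the differences ran from -0.01 for miR-19a-3p to 0.26 for miR-17-5p. The 95% interval for miR-17-5p was -0.82 to 1.33, so these arrays are compatible with any difference in that range. Without ES 3 all 6 members were lower in LS, by -0.39 for miR-92a-3p to -0.57 for miR-18a-5p, and none was called (adjusted p of 0.0629 to 0.121; 24% of all miRNAs called). The direction was not settled. It was downward for all 6 members within slide 1 (miR-17-5p at -0.57) and upward for all 6 within slide 2 (1.90). ES 3 is the only ES array of slide 2, so slide and array cannot be told apart here. With ES 3 kept in, the direction also turned for members under other scalings and without LS 3 (miR-18a-5p at -0.11).

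When ES and LS together were set against DN and DP together, the members lay near 0. No member was called (57.2% of all miRNAs were called) and none had an unadjusted p under 0.05. The largest difference was -0.43 for miR-92a-3p (95% interval -0.94 to 0.07, adjusted p = 0.122). miR-18a-5p was at 0.22, or -0.15 with the cluster and its paralogs left out of the scaling, and the other 4 were at -0.13 to -0.26. Without ES 3 miR-18a-5p was called higher, by 0.52 (adjusted p = 0.0101; 67.2% of all miRNAs called). This comparison averages DN and DP, which themselves differed for the cluster as described above.

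M295, the cultured line, has 1 array and no test. It lay below the 5 primary leukaemias other than ES 3 and below all 3 DP arrays for every member. Compared with ES 3 it was lower for miR-18a-5p and miR-19a-3p and higher for miR-17-5p, miR-20a-5p, miR-19b-3p and miR-92a-3p. In contrast to ES 3, its miR-223-3p was at the floor of -7.59 and its miR-451 at -7.00. When arrays were scaled to the median, M295 was below the 5 leukaemias for all members but miR-92a-3p and below DP for all but miR-17-5p.

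The members did not move by equal amounts. To take out the level of the whole cluster, each member was expressed as its difference from the mean of the 6 on the same array, a value that scaling cannot alter. By that measure DP, at -1.84 ± 0.05, was lowest for miR-18a-5p, with DN at -1.22 ± 0.03, LS at -1.16 ± 0.19 and ES at -1.13 ± 0.23 (SD, n = 3), and at -1.78 in M295. miR-92a-3p did the reverse, with DP highest at 1.88 ± 0.07, ES at 1.23 ± 0.18, LS at 1.21 ± 0.16 and DN at 1.10 ± 0.07, and at 1.65 in M295. DP arrays overlapped with no other primary array on either measure. For miR-18a-5p ES 3, at -1.26, lay within the range of the other primary leukaemias (-1.38 to -0.87). For miR-92a-3p ES 3, at 1.42, lay between the other primary leukaemias (1.04 to 1.34) and DP (1.79 to 1.92), nearer to the former. The level of the whole cluster on ES 3 was lower than that of DP.

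**Figure D4:**
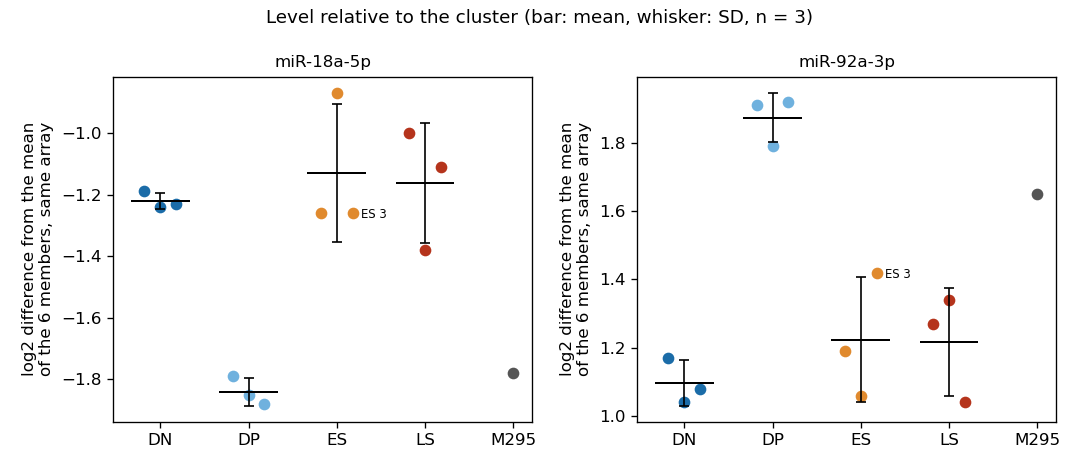
Level of miR-18a-5p (left) and miR-92a-3p (right) relative to the mean of the 6 members on the same array, as a log2 difference, for each array; bars are means and whiskers standard deviations of 3 arrays. DP stands apart from the other primary groups in both panels, lowest for miR-18a-5p (-1.84) and highest for miR-92a-3p (1.88), with M295 (1 array) nearest to it.

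The other 4 members kept a more even place in the cluster. Their group means ranged from 1.26 to 1.40 for miR-20a-5p, from 1.80 to 1.94 for miR-19b-3p, from -0.27 to -0.04 for miR-19a-3p and from -3.21 to -2.84 for miR-17-5p. This measure is a description and was not tested. Both probes of each member gave the same direction and a similar size. In DN against DP they gave 1.82 and 1.62 for miR-18a-5p, 0.43 and 0.26 for miR-92a-3p, and 1.22 and 1.24 for miR-17-5p. The dimmer probe of miR-17-5p had as few as 47.4% of its spots well above background on an array.

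The opposite arms of the same hairpins, usually degraded after processing, were measured on the same arrays with the same scaling. Of 6 on the array 3 were tested. miR-20a-3p passed the filter only through DN and LS, where it is high, so its calls above DP cannot be read as support. miR-18a-3p passed through LS alone. miR-17-3p was at -2.80, -2.71 and -2.88 in DN and at -3.79, -3.83 and -4.01 in DP, a difference of 1.08 (SE 0.32, adjusted p = 0.0282), close to that of miR-17-5p. miR-20a-3p was called too, and since it was above background on all 3 DN arrays and no DP array, it was at least 2.64-fold higher in DN (adjusted p = 0.00317). It was also at least 1.73-fold higher in LS than in DP (adjusted p = 0.0231). miR-18a-3p differed by 0.77 between DN and DP (adjusted p = 0.103, or 0.0567 without ES 3), while miR-17-3p and miR-20a-3p were also called without ES 3 (0.000551 and 0.000271). Without ES 3 miR-17-3p was also called in ES against DP (0.68, adjusted p = 0.0108) and in LS against DP (0.47, adjusted p = 0.0253). miR-19a-5p, miR-19b-1-5p and miR-92a-1-5p were at the floor on all 13 arrays.

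The paralogs share the seeds but not the locus. With all arrays no paralog of the 6 measured was called in DN against DP. miR-106b-5p, miR-93-5p and miR-25-3p of miR-106b~miR-25 differed by 0.45, 0.38 and -0.30. miR-20b-5p, miR-18b-5p and miR-363-3p of miR-106a~miR-363 differed by 0.56, 0.37 and 0.20. Without ES 3, 3 of the 6 paralogs were called higher in DN, where 44.1% of all miRNAs were called and 21% were called higher. They were miR-106b-5p (adjusted p = 0.0344), miR-93-5p (0.0442) and miR-20b-5p (0.0246). With DN and DP fitted alone 5 were called, all but miR-363-3p (adjusted p = 0.116), with miR-25-3p lower, where 71.6% of all miRNAs were called. The difference between cluster and paralogs was not tested. miR-25-3p, with the seed of miR-92a-3p, was at 0.54, 0.59 and 0.48 in DP and at most 0.32 on every other array, and the calls it received in the leukaemias were downward. miR-18b-5p and miR-20b-5p were called higher in ES against DP without ES 3 (1.21, adjusted p = 0.0143, and 0.68, adjusted p = 0.0134). On ES 1 miR-18b-5p was at -4.02, and it was at most -5.33 on every other array.

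Within the cluster the members tracked each other across the 12 primary arrays. Pearson's r between members was 0.58 to 0.99, lowest for miR-18a-5p with miR-92a-3p, and 0.88 to 1.00 for deviations from the group means, which ES 3 dominates. These values describe arrays that share their scaling. The opposite arm miR-17-3p had an r of 0.98 with the mean of the 6 members, and miR-93-5p had 0.93. Outside the cluster and its paralogs the 5 miRNAs most like that mean were miR-130b-5p (r = 0.88), miR-378b (0.81), miR-98-5p (0.78), miR-301b-3p (0.77) and miR-378-3p (0.76). Leaving out ES 3 and DN 2, the arrays farthest from the median of the cluster, gave 0.74, 0.58, 0.81, 0.43 and 0.50. The likeness of miR-378b, miR-301b-3p and miR-378-3p therefore rests in large part on those arrays. On ES 3 miR-130b-5p was at the floor of -7.59 and miR-301b-3p near it, at -7.43. The highest group mean of each of the 5 was in DN or LS.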

How the data were processed

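RNA was prepared with the miRNeasy kit, per the labels' protocols, and hybridised in 1 colour to Agilent arrays named after miRBase release 18. Per the file headers, Agilent Feature Extraction, version 10.7.3.1, quantified the images, and the deposited files give a background-subtracted intensity for each spot, with other marks for outliers and background. The authors' deposited value table is on the log2 scale and served as an alternative; RMA, affy, MAS5 and GCOS are listed without role in the submitters' processing notes. No steps beyond these are given in the sources used here.

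Control and outlier spots were left out (4.03 to 8.60% per array), and the linear spot signals were averaged to probes and then to miRNAs. Arrays were scaled by the percentile described above, floored at -7.59 and put on the log2 scale. A miRNA was above background where at least 50% of the kept spots of 1 of its probes were marked so. The 229 miRNAs that every array of some group showed above background were fitted in limma 3.58.1 under R 4.3.3, each group of the 12 arrays having its own mean, by steps tested on simulated data first (files were read by data.table, version 1.17.8). M295 was not in the fit. An "at least" fold sets the dim group's arrays to the highest of their own value, the common floor and each array's dimmest signal still above background. The normexp alternative used median spot signals, where mean signals had been planned. Named miRNAs were the members, the other arms, the paralogs and the 5 miRNAs most like the cluster. Members and lists were chosen with earlier results of these data known. miR-106a-5p was not analysed here.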

Additional observations from a re-analysis of the deposited data

Results flagged for a closer look

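Of 12 checks (6 members in the 6 leukaemia arrays and in the 6 thymocyte arrays), 1 array lay far from the others of its set. miR-17-5p was at -4.85 on ES 3, against -3.38 on the next lowest leukaemia array, and the gap was 0.626 of the whole range, just above Dixon's critical value for 6 samples. ES 3 was also the array farthest out for the other 5 members, with gaps of 0.420 (miR-19a-3p) to 0.618 (miR-92a-3p) of the range, below that value. Chance flags about 1 in 20 such sets. The 6 members were measured on the same arrays, so these checks are not independent.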

How the results depend on the processing

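The precision is limited by 3 arrays per group. Leaving out 1 array moved the number of members called between 0 and 1 in T-ALL against thymocytes, 0 and 5 in ES against DP, 0 and 3 in LS against DP, 0 and 6 in LS against DN and 0 and 5 in DN against DP (2 with all arrays), and left it at 0 in ES against DN and LS against ES. Leaving out ES 3 gave each upper end above 0, and leaving out DP 3 gave the 0 in DN against DP. Without ES 3 the share of all miRNAs called was, in the same order, 67.2%, 52.4%, 71.6%, 51.1% and 44.1%. Leaving out ES 1 and ES 3 together was a setting chosen after seeing the data and not run for ES comparisons. It leaves 1 ES array, so its calls are not counted here. The DN against DP differences were unaltered by it, with miR-18a-5p at 1.69.

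In DN against DP the count was 1 when scaled over all mouse miRNAs, to the median or in the authors' value table. There 29, 31 and 18 of all 229 miRNAs were called higher. The count was 0 with quantile normalization or no filter. It was 6 with array weights or with only the groups compared, the latter against 71.6% of all miRNAs called. Array weights gave 1 in T-ALL against thymocytes, 5 in ES against DP, 2 in LS against DP and 6 in LS against DN. Only the groups compared gave 2 in LS against DP and 6 in LS against DN (44.5% of all miRNAs called in LS against DN). With array weights 158 of all 229 miRNAs were called in T-ALL against thymocytes, 174 in LS against DP and 135 in LS against DN. The changes of model include array weights and the fit of only the groups compared. Over them 62 to 113 miRNAs were called in ES against DP, 127 to 174 in LS against DP and 61 to 164 in DN against DP. Leaving the cluster and its paralogs out of the scaling gave 1 in T-ALL against thymocytes and 3 in LS against DN. Of all 229 miRNAs, 55 were then called higher and 97 lower in T-ALL against thymocytes. In LS against DN 39 were called higher and 67 lower. In LS against DP an intensity trend gave 1, as did testing only the 108 miRNAs above background on all 12 arrays. Within slide 1 no member was called in DN against DP. Within slide 2, where ES and LS have 1 array each and are assumed to vary like the other groups, 4 were called in T-ALL against thymocytes, 4 in ES against DP, 5 in LS against DP, 6 in ES against DN, 1 in LS against DN, 5 in DN against DP and 6 in LS against ES. Apart from array number, the cause was not tested. Of 200 counts under other settings 160 equalled the count of all arrays or stayed within 1.5 times of it. Outside DN against DP that count was 0, which only another 0 could match, so the 160 says little about stability. Of 1200 single log2 differences 68 changed sign.

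Signs changed as follows. In T-ALL against thymocytes miR-17-5p was at 0.09 with array weights, 0.22 within slide 1 and 0.04 without ES 1 and ES 3, and miR-19a-3p at 0.03, 0.01 and 0.15. There miR-19b-3p was at 0.01 with array weights and 0.12 without ES 1 and ES 3, miR-20a-5p at 0.08 without both, and miR-18a-5p at -0.15 with the cluster left out of the scaling and -0.22 within slide 2. In ES against DP miR-92a-3p was at 0.21 scaled over all mouse miRNAs, 0.04 with array weights and 0.07 within slide 1. Within slide 2 miR-17-5p was at -1.22, miR-18a-5p at -0.16, miR-19a-3p at -0.40, miR-20a-5p at -0.85 and miR-19b-3p at -0.77, and miR-19b-3p was at 0.00 with the cluster left out of the scaling. In LS against DP miR-20a-5p was then at -0.02. In LS against ES the values of miR-17-5p, miR-18a-5p, miR-20a-5p, miR-19b-3p and miR-92a-3p were -0.48, -0.70, -0.69, -0.66 and -0.67 scaled over all mouse miRNAs, -0.11, -0.33, -0.32, -0.29 and -0.30 scaled to the median, -0.30, -0.72, -0.53, -0.42 and -0.28 with array weights and -0.57, -0.73, -0.67, -0.61 and -0.43 within slide 1. miR-17-5p was at 0.00 with quantile normalization, miR-17-5p and miR-18a-5p at -0.06 and -0.02 in the authors' value table, miR-18a-5p and miR-20a-5p at -0.02 with the cluster left out of the scaling, and miR-19a-3p at 1.21 within slide 2.

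Leaving out 1 array in turn gave, in T-ALL against thymocytes, -0.45 to 0.14 for miR-17-5p, -0.01 to 0.52 for miR-18a-5p, -0.27 to 0.10 for miR-19a-3p, -0.44 to 0.02 for miR-20a-5p and -0.33 to 0.08 for miR-19b-3p. In ES against DP it gave -0.19 to 0.99 for miR-17-5p, -0.10 to 0.81 for miR-20a-5p, -0.06 to 0.77 for miR-19b-3p and -0.55 to 0.13 for miR-92a-3p. In LS against ES it gave -0.46 to 0.71 for miR-17-5p, -0.57 to 0.49 for miR-18a-5p, -0.46 to 0.27 for miR-19a-3p, -0.51 to 0.40 for miR-20a-5p, -0.44 to 0.38 for miR-19b-3p and -0.39 to 0.30 for miR-92a-3p.

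The number of all miRNAs called was 131 in T-ALL against thymocytes (30 to 158 over the alternatives), 106 in ES against DP (29 to 165), 134 in LS against DP (56 to 174), 15 in ES against DN (0 to 137), 76 in LS against DN (3 to 135), 67 in DN against DP (18 to 164) and 6 in LS against ES (0 to 114). The share of calls that were higher in DN against DP was 35.8%, and 50% when scaled over all mouse miRNAs or 45.9% with the cluster left out of the scaling. With the cluster left out, this share went from 55% to 36.2% in T-ALL against thymocytes, from 45.3% to 35.2% in ES against DP, from 55.2% to 42.4% in LS against DP, from 60% to 20% in ES against DN and from 77.6% to 36.8% in LS against DN. That scaling moved the median of all tested miRNAs by -0.37 in T-ALL against thymocytes, -0.25 in ES against DP, -0.32 in LS against DP, -0.42 in ES against DN, -0.48 in LS against DN and 0.16 in DN against DP. Scaling over all mouse miRNAs moved the share of higher calls to 70.9% in ES against DP, 95.2% in ES against DN and 55.8% in LS against DN, and the median by 0.54 in ES against DP and -0.74 in LS against ES.

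Replicate numbers recur across groups but did not pair the arrays: the correlation of deviations between same-numbered arrays was 0.05 on average (-0.34 to 0.50, 6 of 18 pairs over 0.1), and 5 of 12 arrays correlated best with one of their own number. With the replicate number as a block 2 members were called in DN against DP (miR-18a-5p, limma adjusted p = 0.0222, and miR-19a-3p, 0.0349) and 0 in the other 6 comparisons, with 61 miRNAs called in all in DN against DP.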
